A study of Bubalus bubalis with 8 samples.

Results

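The caseins and whey proteins make up most of the protein of milk, and their transcripts were measured here in buffalo mammary epithelial cells (MECs) after heat stress. All probes whose gene name was CSN1S1, CSN1S2, CSN2, CSN3, LALBA, PAEP (also called LGB) or GLYCAM1 were taken. These are 7 of the 24839 gene names on the array, with 26 of the 43653 probes outside the control spots. Of these, 3 probes (1 of CSN2 and 2 of PAEP) lay in a region of the array that was dark on the CTR array and were left out, and 23 were used. CSN1S1 had 6 probes, CSN1S2 5, CSN2 4, CSN3 2, LALBA 3, PAEP 1 and GLYCAM1 2.

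The MECs were a primary culture from the mammary gland tissue of 1 female buffalo, grown to the 10th passage in DMEM/F12 with supplements and plated on collagen. Unstressed cells (CTR) stayed at 37 °C. Heat stressed cells spent 1 h at 42 °C, went back to 37 °C and were harvested with trypsin after 30 min or after 2, 4, 8, 12, 16 or 24 h. RNA of each of the 8 conditions was labelled with Cy3 and hybridised to 1 array of a bovine 4x44K design, so that buffalo RNA was read with cattle probes. No condition had a second array, and no test or p-value is given.

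CTR, 8 h, 12 h and 24 h were on slide 1, and 30 min, 2 h, 4 h and 16 h on slide 2, so that for the slide 2 time points slide and time after heat stress cannot be told apart from each other when they are compared with CTR. Comparisons of 4 h and 16 h with 30 min and 2 h lie within slide 2. A level is the log2 intensity of a probe minus the 75th percentile of its array, which lay between an intensity of 48.6 (30 min) and 423 (12 h). Probes well above background on an array are called detected there. Repeated spots of bright probes had a log2 SD that ran from 0.19 (8 h) up to 0.47 (16 h) on the 7 arrays besides 30 min, which gives an error of 0.36 for the 4 h change from CTR and of 0.52 for the 16 h change. These errors cover the spread within arrays only.

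Milk proteins are made by the secretory cells of the mammary alveoli. CSN1S1, CSN1S2 and CSN2 encode the calcium-sensitive caseins (alpha-s1, alpha-s2 and beta), which carry calcium phosphate in micelles, and CSN3 encodes kappa-casein, which covers the micelle and keeps it in solution. LALBA encodes alpha-lactalbumin, the subunit that turns beta-1,4-galactosyltransferase into lactose synthase, and PAEP encodes beta-lactoglobulin, the main whey protein of ruminants. GLYCAM1 encodes a mucin-like protein of the milk serum. Prolactin, acting through its receptor, JAK2 and STAT5, together with glucocorticoids and contact with a laminin-rich matrix, is known to switch these genes on, and MECs on plastic or collagen are known to lose much of this expression.

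The sequences below belong to some of the probes with at least 1 reading frame free of stop codons, and they show where these overlap other probes of the gene. In the annotation of the array files, for which the file header names the cattle build Btau_3.1, the 4 casein genes lay on chromosome 6. On that chromosome the probes ran from 88300947 to 88309061 for CSN1S1, from 88329295 to 88332577 for CSN2 on the reverse strand, from 88421964 to 88427455 for CSN1S2 and from 88532352 to 88534393 for CSN3. LALBA was on chromosome 5 from 34387982 to 34388821, GLYCAM1 on chromosome 5 from 28324941 to 28325031, and PAEP on chromosome 11 from 107171376 to 107171429. Whether each coordinate follows the build in the header could not be checked. In the buffalo RefSeq annotation CSN3, CSN1S2, CSN2 and CSN1S1 follow each other on chromosome 7 with ODAM between CSN3 and CSN1S2. Capitals mark runs of at least 15 bases that another probe of the same gene also carries.
CSN1S1 A_73_P244615: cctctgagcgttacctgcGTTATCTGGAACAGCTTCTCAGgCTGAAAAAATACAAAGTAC
CSN1S1 A_73_P393463: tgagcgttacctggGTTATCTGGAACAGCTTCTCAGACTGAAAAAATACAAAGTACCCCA
CSN1S1 A_73_P107876: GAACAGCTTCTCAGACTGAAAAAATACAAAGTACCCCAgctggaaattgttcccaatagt
CSN1S1 A_73_P468825: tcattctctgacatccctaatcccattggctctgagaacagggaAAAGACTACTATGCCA
CSN1S2 A_73_P438506: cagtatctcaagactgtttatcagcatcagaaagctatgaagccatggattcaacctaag
CSN2 A_73_P045606: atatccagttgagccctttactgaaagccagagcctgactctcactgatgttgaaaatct
LALBA A_73_P038871: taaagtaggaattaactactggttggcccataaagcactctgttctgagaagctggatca

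The first 3 CSN1S1 probes overlap and are not separate readings. CSN1S1 A_73_P468825 shares 16 bases with A_73_P050936, and the 2 GLYCAM1 probes share 29. CSN1S2 A_73_P266861 shares 15 bases with A_73_P287836 and 15 with A_73_P468873. The probes counted below are thus not all separate readings. Over 56 shared bases A_73_P393463 differs from A_73_P244615 by C18G and G41A, with positions counted from 1 at the 5′ end of A_73_P244615. Which bases the buffalo transcript holds was not measured.

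The milk protein probes were detected on the slide 2 arrays and, with 1 exception, not on slide 1. Of the 23 probes, 22 were detected on the 4 h array, 21 on the 16 h array, 20 on the 2 h array and 19 on the 30 min array. On each of the CTR, 8 h, 12 h and 24 h arrays 1 was detected. The single probe seen on every array was CSN2 A_73_116854. LALBA A_73_P203537 was detected on no array, and CSN1S1 A_73_P050936 had an outlier mark at 16 h and no value there. Fewer cells making these transcripts and less transcript per cell cannot be told apart in such bulk RNA.

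**Figure D1:**
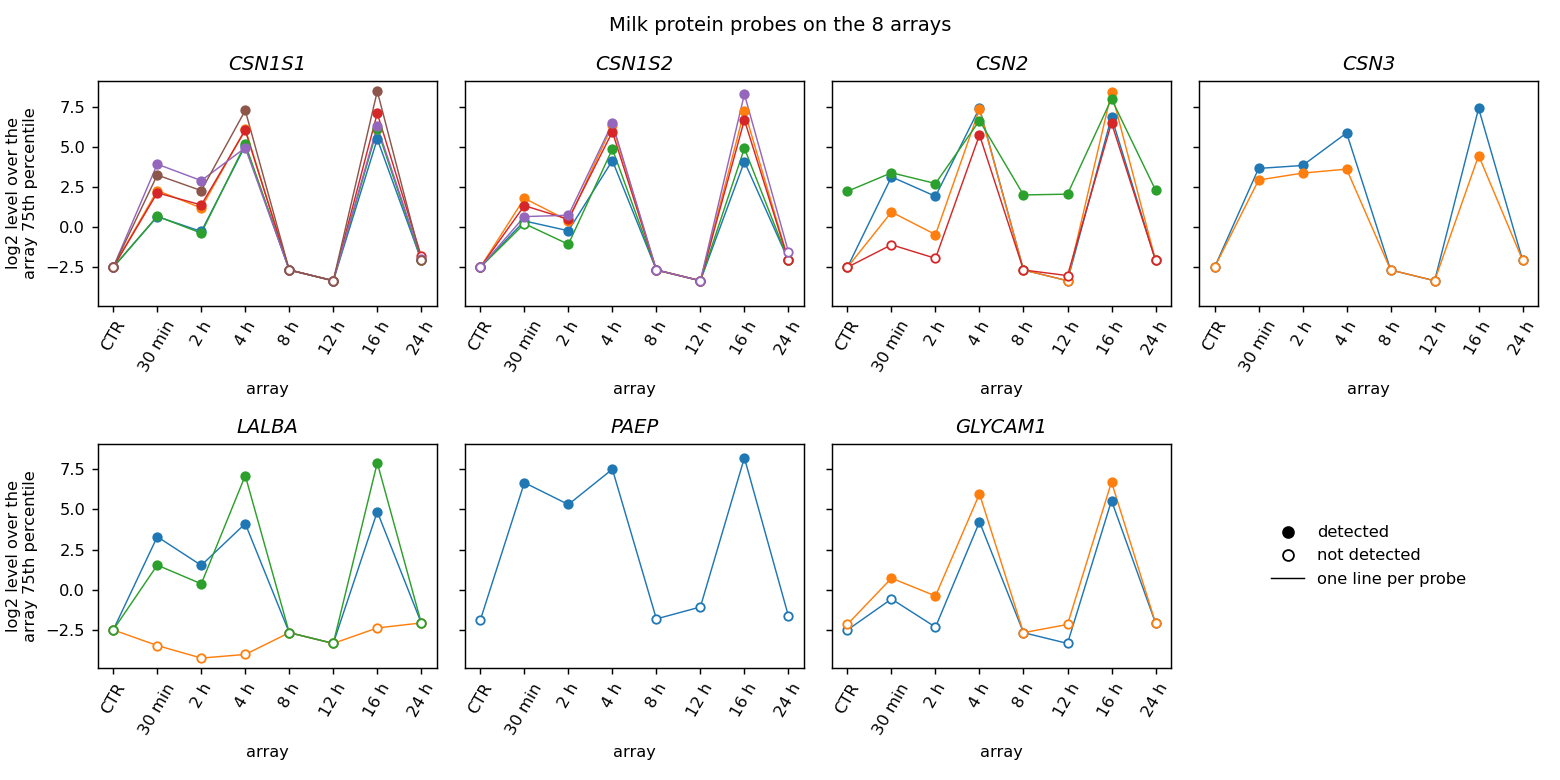
Level of each of the 23 milk protein probes (y axis, log2 over the 75th percentile of the array) on the 8 arrays (x axis), with 1 panel per gene and 1 line per probe. Filled circles are detected and open circles not detected. At 4 h and 16 h the detected probes lie between 3.60 and 8.46, and on slide 1 only 1 CSN2 probe is filled.

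Among the calcium-sensitive caseins, CSN1S1 had the following log2 levels at probe A_73_P468825. On slide 1 the level was -2.51 (CTR), -2.68 (8 h), -3.36 (12 h) and -2.08 (24 h), and on slide 2 it was 3.24 (30 min), 2.26 (2 h), 7.27 (4 h) and 8.46 (16 h). The 4 slide 1 values are those shared by all spots not above the noise on each array, so they give an upper limit and no level. Where a probe was dim on 1 array, that array was given the lowest level of any detected probe there, or the probe's reading where this was higher, and the fold is written as a bound. On this footing the 4 h level of CSN1S1 was at least 176-fold over CTR, and the 16 h level at least 404-fold. For the other CSN1S1 probes the bounds ran from 35.0-fold to 78.6-fold on the 4 h array, and from 51.2-fold to 156-fold on the 16 h array.

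CSN1S2, at probe A_73_104286, had log2 levels of -2.51 (CTR), -2.68 (8 h), -3.36 (12 h) and -1.54 (24 h), all not detected, and of 0.64 (30 min), 0.73 (2 h), 6.47 (4 h) and 8.28 (16 h). At 30 min it was close to the detection limit of 0.24, while at 2 h it lay clearly above the limit of -1.95. It was high at 4 h and 16 h. The 4 h level was at least 102-fold over CTR and the 16 h level at least 356-fold. From 2 h to 4 h, within slide 2 and with both values measured, it was 53.7-fold higher. The 5 CSN1S2 probes spread widely, from at least 20.2-fold over CTR at 4 h (A_73_P266861) to the values of A_73_104286.

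CSN2 was the only member with signal in unstressed cells, and only at 1 of its 4 probes. A_73_116854 had log2 levels of 2.22 (CTR), 1.99 (8 h), 2.04 (12 h) and 2.30 (24 h) on slide 1 and of 3.38 (30 min), 2.71 (2 h), 6.63 (4 h) and 7.98 (16 h) on slide 2. The 4 slide 1 values lay close together, and 4 h and 16 h lay above all others. All changes of this probe were measured on both arrays, and it was 21.3-fold (4 h) and 54.1-fold (16 h) higher than CTR, beside 2.22-fold (30 min) and 1.40-fold (2 h). The log2 change at 30 min was 1.15 with the deposited values and -1.08 with the scanner intensities of that array, so its direction is not settled. With each array scaled to its median the log2 change was 1.19 in place of 0.48 (2 h) and 5.50 in place of 4.41 (4 h). The probe A_73_P045606 was not detected on slide 1 and had log2 levels of 0.93 (30 min), -0.48 (2 h), 7.35 (4 h) and 8.40 (16 h). The last pair lay at least 186-fold and 386-fold over CTR.

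The CSN2 probes therefore differed on slide 1. A_73_116854 shares its last 38 bases with A_73_P311621, which was not detected in CTR, and starts with 22 bases that A_73_P311621 lacks.
CSN2 A_73_116854, first 22 bases: aatgccccctcctcacttttga
The same 22 bases are in A_73_P232452, the CSN2 probe left out for the dark region, which was also detected on all 8 arrays. What these 2 probes read on slide 1 was not tested.

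CSN3, at probe A_73_111101, was not detected on slide 1 and had log2 levels of 3.65 (30 min), 3.83 (2 h), 5.86 (4 h) and 7.39 (16 h). It was thus well above the detection limit at every slide 2 time point. Over CTR it was higher by at least 14.4-fold (30 min), 16.3-fold (2 h), 66.5-fold (4 h) and 192-fold (16 h). Its second probe, A_73_P107731, had log2 levels of 2.92, 3.36, 3.60 and 4.45 in the same order, and from 2 h to 4 h it moved by 0.25, less than the error between spots.

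Of the whey proteins, LALBA at probe A_73_P038871 had log2 levels of 1.53 (30 min), 0.36 (2 h), 7.11 (4 h) and 7.91 (16 h) and was not detected on slide 1. From 2 h to 4 h it was 107-fold higher. Over CTR the bounds were 158-fold (4 h) and 275-fold (16 h). Its other detected probe, A_73_113728, was at least 19.9-fold and 33.2-fold higher.

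PAEP was read by 1 probe outside the dark region. At A_73_P459006 the log2 level was 6.67 (30 min), 5.31 (2 h), 7.51 (4 h) and 8.22 (16 h), and on slide 1, where it was not detected, -1.89 (CTR), -1.83 (8 h), -1.08 (12 h) and -1.64 (24 h). It was higher than CTR by at least 117-fold (30 min), 45.4-fold (2 h), 209-fold (4 h, where the spot was saturated) and 342-fold (16 h). From 30 min to 16 h it was 2.93-fold higher, and from 30 min to the saturated 4 h spot at least 1.79-fold. The 30 min value is the deposited one, and in the scanner intensities of that array the probe was not detected. The other PAEP probes, left out because they were dark on the CTR array, had log2 levels within slide 2 of 3.37 (30 min), 1.62 (2 h), 6.71 (4 h) and 7.87 (16 h) at A_73_115729, and of 3.67, 2.28, 6.27 and 7.26 at A_73_P411496. Their 30 min levels lay further below those of 4 h than at A_73_P459006.

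GLYCAM1, at A_73_114339, had log2 levels of -2.16 (CTR), -2.68 (8 h), -2.17 (12 h) and -2.08 (24 h), not detected, and of 0.71 (30 min), -0.39 (2 h), 5.97 (4 h) and 6.71 (16 h). Its bounds over CTR were 71.6-fold (4 h) and 120-fold (16 h). Its other probe was detected at 4 h and 16 h only, at least 21.4-fold and 53.6-fold over CTR.

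**Figure D2:**
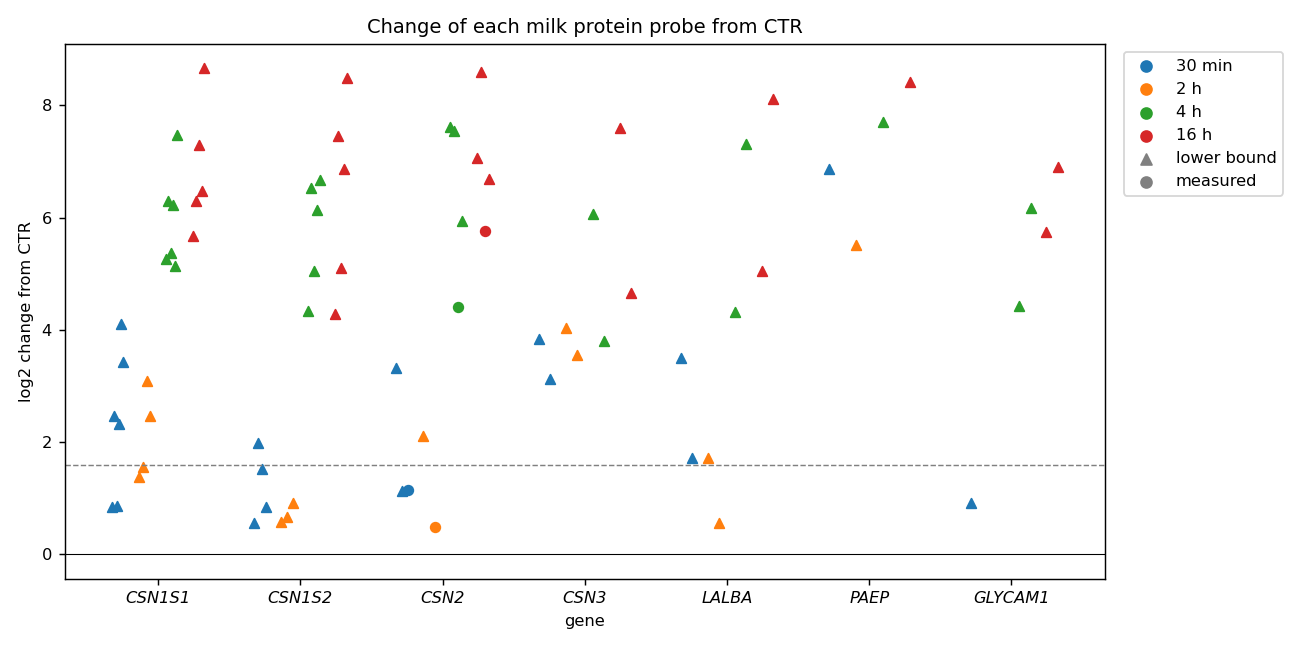
Log2 change of each milk protein probe from CTR (y axis) by gene (x axis), with 1 colour for each slide 2 time point. Triangles are lower bounds, circles are measured on both arrays, and the dashed line is 3-fold. All probes tested at 4 h and 16 h lie above the line, from 3.80 upwards. At 30 min probes of 6 genes also lie above it and at 2 h probes of 5, every PAEP and CSN3 probe among them.

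Counted with the 3-fold cutoff that the study used, 22 of 22 milk protein probes detected at 4 h or in CTR were higher at 4 h than in CTR, where 2.31% of all probes tested were. At 16 h 21 of 21 were, where 4.97% of all probes were. At 30 min the count was 11 of 19 (all probes 6.73%) and at 2 h 7 of 20 (all probes 4.6%), where 6 more probes lay below the detection limit of the CTR array and gave no fold. For the 8 h, 12 h and 24 h arrays only the CSN2 probe could be compared, and 0 of 1 was higher (all probes 0.469%, 0.103% and 0.0713%). Only the CSN2 probe detected in CTR could be called 3-fold lower, and it was not on any array. Nothing is read from this beside the shares of all probes, which on slide 2 were 4.6% (30 min), 7.76% (2 h), 5.19% (4 h) and 4.53% (16 h), and on slide 1 0.167% (8 h), 0.457% (12 h) and 0.615% (24 h). The median log2 change of the members was 6.09 at 4 h (range 3.80 to 7.71) and 6.87 at 16 h (4.27 to 8.66), beside -0.12 and -0.05 over all probes tested.

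The 4 h and 16 h arrays were then set against each other array. At 4 h 18 of 22 probes were 3-fold higher than at 30 min (all probes 0.908%) and 21 of 22 higher than at 2 h (all probes 1.81%). All 22 were higher than on the 8 h, 12 h and 24 h arrays, where 2.66%, 3.48% and 2.37% of all probes were. At 16 h 18 of 21 were 3-fold higher than at 30 min (all probes 3.91%), 20 of 21 higher than at 2 h (all probes 5.63%), and 21 of 21 higher than on the 8 h, 12 h and 24 h arrays (all probes 6.47%, 7.76% and 5.17%). The probes under 3-fold against 30 min were CSN3 A_73_P107731 and LALBA A_73_113728 on both arrays, CSN1S1 A_73_100438 on the 4 h array and PAEP A_73_P459006 on the 16 h array, while against 2 h it was CSN3 A_73_P107731 on both. PAEP is also outside the count of 4 h against 30 min, where its saturated spot gives a lower limit of the fold and not whether it passed. Probes of 1 gene thus differed in this step. From 30 min to 4 h LALBA was 1.76-fold higher at A_73_113728, its probe nearest the end of the transcript, and 47.9-fold at A_73_P038871. CSN1S1 was 2.03-fold higher at A_73_100438, also nearest the end, and 16.3-fold at A_73_P468825, whereas CSN1S2 at A_73_104286, again nearest the end, was 56.9-fold higher. These comparisons share the 4 h or the 16 h array. In all 21 probes detected at both 4 h and 16 h, these were the highest 2 levels of the 8 arrays.

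Between 4 h and 16 h the members were close. The 16 h level was above the 4 h level in 19 of 21 probes, by a median log2 difference of 0.85 (range -0.56 to 1.81), but with each array scaled to its median in place of the 75th percentile 5 of 21 were, with a median of -0.37. That scaling shifted the other probes too, and the median over 8044 bright probes was 0.04 with the 75th percentile and -1.17 with the median. The members' median lay above that of the bright probes under both. Only CSN1S2 A_73_104286 passed 3-fold, at 3.50-fold (all probes 3.57%), and 0 of 21 were 3-fold higher at 4 h than at 16 h (all probes 1.17%). At 30 min the level was above that at 2 h in 16 of 19 probes.

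**Figure D3:**
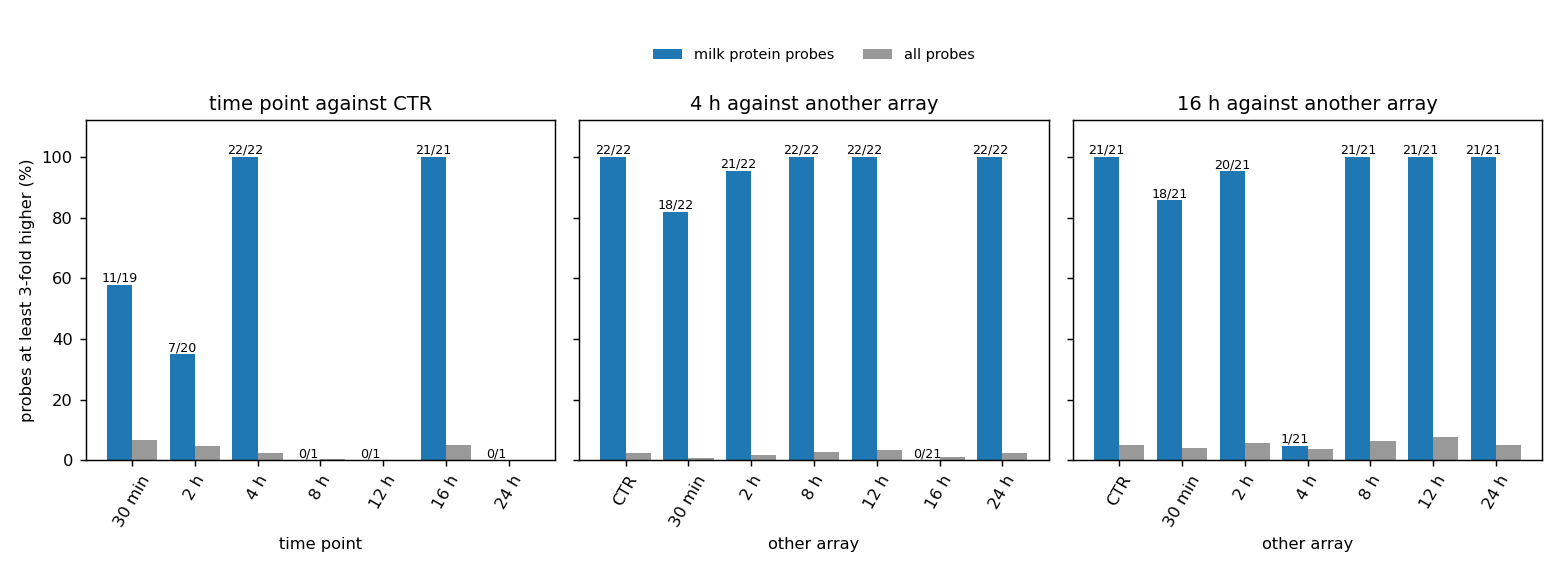
Share of probes at least 3-fold higher (y axis, percent), for each time point against CTR and for 4 h and 16 h against each other array (x axis). Blue bars are the milk protein probes tested, with their counts, and grey bars are all probes tested. For 4 h and 16 h at least 18 probes passed against every array but each other.

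No probe for a regulator of milk protein transcription that could be compared was 3-fold higher at 4 h or 16 h. The list of 12 genes had probes for 11, all but ELF5, with 29 probes, of which 9 could be compared at 4 h and 9 at 16 h. At both time points 0 were 3-fold higher (all probes 2.31% and 4.97%) and 1 was lower (all probes 5.19% and 4.53%), and nothing is read from such small counts. STAT5A, a transcription factor that prolactin activates, was at least 3.75-fold lower at 4 h at A_73_P250836, where it was not detected. Its log2 level of 0.18 in CTR was close to the detection limit of -0.20 there, and at 24 h on slide 1 it was not detected either. STAT5B went the other way, with log2 changes of 1.33 (4 h) and 1.22 (16 h) at A_73_106938, measured on both arrays. NR3C1, the glucocorticoid receptor, was at least 4.59-fold lower at 16 h at A_73_P085356, while its other detected probe, A_73_118430, had log2 levels of 1.05 in CTR and 1.96 at 16 h. The prolactin receptor PRLR was not detected on any array. The median log2 change of the list was -0.05 at 4 h and -0.25 at 16 h.

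For lactose synthesis 13 of 17 probes could be compared. At 16 h 1 was 3-fold higher, B4GALT1, the galactosyltransferase that works with alpha-lactalbumin, by 3.48-fold from a log2 level of 3.89 in CTR to 5.69. With 4.97% of all probes 3-fold higher at 16 h, 1 of 13 is near the background. At 4 h none passed, and no probe of the list was 3-fold lower at either time point. The median log2 change was 0.33 at 4 h and 0.56 at 16 h.

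About as many minor milk protein probes passed 3-fold as did not. Of 18 probes compared at 4 h, 8 were 3-fold higher (all probes 2.31%) and 1 lower (all probes 5.19%). Of 18 compared at 16 h, 9 were higher (all probes 4.97%) and 0 lower (all probes 4.53%). BTN1A1, butyrophilin of the milk fat globule membrane, was at least 34.4-fold higher at 4 h and 75.6-fold at 16 h, with log2 levels of -2.51 in CTR, 4.91 at 4 h and 6.04 at 16 h. MUC1, the membrane mucin, was measured on both arrays at A_73_115084 and was 10.3-fold and 15.2-fold higher. At that probe it was also 3.41-fold higher at 30 min and 5.36-fold at 2 h. Every other MUC1 and BTN1A1 probe detected at 4 h or 16 h gave only bounds below 3-fold there. LTF (lactoferrin), LPO (lactoperoxidase) and PIGR (the receptor that carries immunoglobulin A into milk) were higher at both time points, and MFGE8 passed at 4 h only. LTF was also at least 64.8-fold higher at 2 h. LYZ (lysozyme) was 3.81-fold lower at 4 h. For casein phosphorylation and secretion, 1 of 7 probes compared was 3-fold higher at 4 h (all probes 2.31%), FAM20A by at least 3.21-fold. At 16 h 0 of 4 passed, and nothing is read from such small counts. The casein cluster neighbours STATH and ODAM were not detected on any array.

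Markers of the cells moved with the arrays as well. The summed level of secretory luminal markers (BTN1A1, XDH, FABP3 and PLIN2), in multiples of the 75th percentile, was 10.9 to 18.4 on slide 1 and 24.0 (30 min), 18.8 (2 h), 217 (4 h) and 203 (16 h) on slide 2. Of 8 epithelial markers 7 or 8 were detected on every array, with KRT18 detected on the 2 h and 16 h arrays only. The study reported strong staining of the cultured cells for the KRT18 protein. How well the cattle probes read buffalo KRT18 was not tested. Their summed level was 375 to 572 on slide 1 and 184 (30 min), 186 (2 h), 263 (4 h) and 438 (16 h) on slide 2. At 4 h and at 16 h 4 of 13 epithelial probes compared were 3-fold lower than CTR (all probes 5.19% and 4.53%), all of KRT8. At both, 0 were higher (all probes 2.31% and 4.97%). KRT8 was 7.17-fold lower than CTR at 4 h and 4.86-fold lower at 16 h at A_73_108833. Of 6 leukocyte markers 2 or 3 were detected on slide 1, with a summed level of 4.83 to 6.45, against 6 at 30 min and 2 h (98.5 and 64.4), 3 at 4 h (13.8) and 5 at 16 h (23.4). CD14 was not detected on slide 1, at 4 h or at 16 h. Fibroblast markers summed to 125 to 186 on slide 1 and to 118 (30 min), 95.7 (2 h), 57.1 (4 h) and 147 (16 h) on slide 2. At 16 h 10 of the 23 fibroblast probes compared were 3-fold higher than CTR (all probes 4.97%) and 0 lower (all probes 4.53%). DCN, the proteoglycan decorin, was at least 77.5-fold higher at A_73_P099601 and COL1A2, a chain of collagen I, at least 8.80-fold at A_73_P047631. The rest were further DCN and COL1A2 probes and probes of COL1A1 and COL3A1, all bounds, and no VIM or PDGFRA probe passed. At 4 h 1 of 16 was higher (all probes 2.31%), DCN A_73_P099601 at 5.83-fold or more. Another 4 were lower (all probes 5.19%), all measured on both arrays. These were VIM (3.56-fold and 3.02-fold), COL1A1 (3.75-fold) and COL3A1 (4.97-fold). Endothelial markers were not detected on slide 1, while VWF was detected on every slide 2 array and PECAM1 at 16 h only. Their summed level was 3.70 (30 min), 2.03 (2 h), 0.31 (4 h) and 2.44 (16 h). The part of any of these in the milk protein values was not tested.

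By Pearson's r over the 8 arrays, with levels floored at each detection limit and 12651 candidate probes, the named genes most like the members were the following. SCD, the stearoyl-CoA desaturase, was the most like CSN1S1 (r = 0.99), ACSL1 the most like PAEP (r = 0.99), and TAB1 the most like CSN1S2 and CSN2 (r = 0.996 and 0.990). EFHD1 and CIDEA were the first 2 for LALBA and GLYCAM1, and FABP3, the fatty acid binding protein of heart and mammary gland, came next for LALBA. TEX264 was the most like CSN3 (r = 0.99). These r are descriptions over 8 arrays that share slides, and most such genes changed less than the members: TAB1 had log2 levels of 2.43 in CTR, 3.38 at 4 h and 3.69 at 16 h.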

How the data were processed

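RNA of 8 conditions was measured, 1 Cy3 array each. The authors scanned the slides and ran Feature Extraction 9.5.3.1, whose processed intensity per spot was deposited with spatial trends removed and arrays unscaled. A second deposited table, made by the authors in GeneSpring GX, holds log2 values shifted by the 75th percentile and then centred per probe.

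Processed intensities were taken to log2, outlier-marked spots left out, spots of a probe averaged and the 75th percentile of the array subtracted. At 30 min, where scanner intensities departed from the deposited log2 values, the deposited value plus the median offset of the probe over the other 7 arrays was used, and a probe counted as detected at or above the highest detection limit of those arrays. Folds were bounded as described beside the results and were not given where a probe was dim on both arrays. Probes tested were detected on at least 1 of both arrays. Steps were checked on simulated data. Python 3.11.15, R 4.3.3 and limma 3.58.1 (normexp, quantile) were used.

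Every member probe outside the dark region was counted, a gene being represented by its probe detected on most arrays. Ties went to the probe with the higher mean level over the arrays. For CSN1S1, CSN1S2, CSN3 and LALBA this took the probe with the largest folds over CTR at 4 h and 16 h. List genes past 3-fold at 4 h or 16 h were named. Of the 3 most alike probes found for each member, only some are named. Members and lists were chosen with earlier results of these data known. Alternatives were other scalings, normalizations, bounds, filters, cutoffs and 30 min values. The array number limits the precision.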

Additional observations from a re-analysis of the deposited data

Results flagged for a closer look

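A probe outside the rule on names, TC471483 (A_73_111600), which the array annotation describes as alpha-s1 casein, had a log2 change from CTR of at least 4.73 at 4 h, against no signal in CTR. Its log2 level was 4.53 on the 4 h array, 3.83 on the 16 h array and -0.90 on the 2 h array. Among intensities read by the scanner for the 30 min array, which no comparison uses, 10 milk protein probes were well above background. All 10 lay among the 11 in the upper part of the array, where scanner levels exceeded the deposited ones by a median of 2.87 (log2), and none of 12 in the lower part was, where they fell short with a median difference of -3.30.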

How the results depend on the processing

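With only probes detected on both arrays, 1 probe (CSN2 A_73_116854) remained for 4 h and 16 h against CTR, 8 h, 12 h and 24 h, and 1 was 3-fold higher in each, while 0 were at 30 min and 2 h against CTR. So the size of most changes rests on bounds against arrays without signal. Without a bound 18 probes were 3-fold higher than CTR at 30 min and 18 at 2 h, and with normexp 17 were at 30 min. With 1 probe per gene, an alternative chosen after seeing the data, 7 of 7 genes were 3-fold higher at 4 h and at 16 h than on each array off that pair, except 6 against 30 min. Ties between these probes were settled by mean level, to which 4 h and 16 h add, so this count gives no separate support. Of 16 h against 4 h, 8 probes passed at a 2-fold cutoff, 2 with the 75th percentile over bright probes, and 0 with the median, quantile normalization or normexp, and with the median 1 was 3-fold higher at 4 h. The median difference of 16 h minus 4 h was -0.37 with the median and 0.13 with normexp. The median scaling shifted the median of all probes tested to 0.85 at 4 h against CTR. With the 30 min scanner intensities 10 member probes were detected at 30 min in place of 19. With the dark region kept, 2 probes were detected in CTR, at 8 h, 12 h and 24 h.

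For the lists, tried after seeing the data, 11 probes were 3-fold from CTR at 4 h and 11 at 16 h. At 4 h this became 25 with the median, 19 with normexp, 18 without a bound, 23 at 2-fold and 2 with probes detected on both arrays. At 16 h it became 19 without a bound, 21 at 2-fold and 2 with both detected. At 2 h it was 11 without a bound, 11 at 2-fold and 2 with both detected. At 30 min it was 26 with the scanner intensities and 3 with both detected. At 8 h it was 1 without a bound and 3 at 2-fold, and at 12 h 1 without a bound. The cause was not tested. No other count moved by over 1.5 times, and no called gene change turned its direction, while the uncalled log2 change of CSN2 at 30 min turned from 1.15 to -1.08 with the scanner intensities, that at 12 h from -0.18 to 0.06 with the median, 0.08 with the 75th percentile over bright probes and 0.14 with normexp, and that at 24 h from 0.08 to -0.36 with the median. No paired analysis was possible because each condition had 1 array, and for the same reason no array could be left out. Signal over background limits the values of probes not detected on slide 1.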
